A study of Danio rerio with 36 samples.

Results

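The brains of 2-month-old zebrafish homozygous for the sgshΔex5-6 allele, with and without a stable transgene that expresses sgsh, were compared by RNA sequencing. These 2 groups hold 6 of the 36 libraries of the series, 3 in each, and were chosen by their labels alone. The study follows the sgshΔex5-6 line as a model of mucopolysaccharidosis IIIA from embryo to aged adult, and the transgenic brains ask what added sgsh does to the transcriptome of the mutant. The sgsh Tg brains carried Tg(-3.5ubb:mTagBFP2-T2A-sgsh) on the sgshΔex5-6 homozygous background, and the sgsh brains carried the same deletion without the transgene. Wild-type fish of the same age, WT Tg brains with the transgene and WT brains without it, gave 3 libraries each and were set beside the mutant comparison. Each library was a pool of 3 whole brains, dissected after exsanguination. The promoter of the transgene is a fragment of the ubiquitin gene ubb, used in zebrafish for expression in most cell types, and the construct joins the blue fluorescent protein mTagBFP2 to sgsh through a T2A peptide. The labels do not say how many insertions or founders the line has, nor from which clutches, tanks or hours of the day the brains came. Transgene carriage and these conditions cannot be told apart in the comparisons below.

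SGSH is a lysosomal sulfatase that removes the sulfate group from the terminal glucosamine of heparan sulfate, and its loss in people causes mucopolysaccharidosis IIIA, a childhood neurodegenerative disease in which partly degraded heparan sulfate builds up in lysosomes. Heparan sulfate chains also sit on the cell surface, where they bind growth factors. The brain of a young adult zebrafish still grows: radial glia and their progeny divide in zones along the ventricles and yield neurons and glia throughout life.

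Every 2-month library held between 16200025 and 16594654 gene counts (16275887 to 16396698 in sgsh Tg brains, 16300008 to 16594654 in sgsh brains), so depth was nearly equal. Every sample of a group is given in the order of replicates 1 to 3, and means are given ± SD over the 3 libraries. Levels are given as CPM (counts scaled to a library total of 1000000), differences as log2 fold changes of sgsh Tg over sgsh brains, and a gene was called where the adjusted p of edgeR's quasi-likelihood test (Benjamini-Hochberg over 19749 genes) was below 0.05. In all 12 libraries of this age the markers of neurons, radial glia and oligodendrocytes were present (snap25a at 2002 CPM or more, slc1a2b at 2083 CPM or more, mbpa at 4872 CPM or more), whereas the pituitary hormone genes gh1 and cga, the rod opsin gene rho and the lens gene crybb1 measured below 0.5 CPM in each library. Other markers of these tissues were present at low to moderate levels: pomca, expressed in pituitary and hypothalamus, at 3.17 to 6.31 CPM, and the pineal opsin gene exorh at 53.1 to 140 CPM. Transgene carriage was the main axis among the 12 libraries: the first principal component held 47.9% of the variance, with scores of 20.1 to 28.2 in sgsh Tg and 12.4 to 25.3 in WT Tg brains, against -24.5 to -20.8 in sgsh and -24.5 to -17.7 in WT brains. The second component (10.8%) set replicate 2 of sgsh Tg and replicate 3 of WT Tg brains apart from the other transgenic libraries. Replicate 3 of the sgsh brains stood apart from replicates 1 and 2, with a chi-square per degree of freedom of 10.8 and 9.47 against them, where replicates 1 and 2 differed by 3.51. Because the labels do not say whether pools came from separate clutches, p-values measure the spread between these pools only.

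The transcript of sgsh itself was far more abundant with the transgene. The gene (ENSDARG00000032087, chromosome 22, bases 11520249 to 11532760 of GRCz11, plus strand, 7 exons) had 116, 168 and 113 CPM in sgsh Tg brains, against 4.27, 5.11 and 4.399 CPM in sgsh brains. The sgsh Tg libraries all lay above the sgsh libraries, and the lowest of them exceeded the highest sgsh library 22.2-fold. The difference was a log2 fold change of 4.85 ± 0.19 (SE, edgeR adjusted p = 2.4e-08), and the ratio of means was 28.9. In wild-type fish, sgsh had 170.3, 154 and 221 CPM in WT Tg brains, against 8.74, 7.59 and 9.07 CPM in WT brains. The mean in sgsh Tg brains was thus 15.6 times that of WT brains, and the mean in sgsh brains was 0.542 times that of WT brains, a difference that was not called (log2 fold change -0.88 ± 0.22 SE, edgeR adjusted p = 0.097). Per kilobase of exon, sgsh measured 67.8 CPM in sgsh Tg brains, against 2.35 CPM in sgsh brains and 4.34 CPM in WT brains. Among the 19749 genes it ranked 941 by CPM per kilobase of exon in sgsh Tg brains, against 13824 in sgsh brains. Counts are per gene, so they do not separate the transgene's transcript from that of the deleted allele, and reads of mTagBFP2 have no row in the table.

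**Figure D1:**
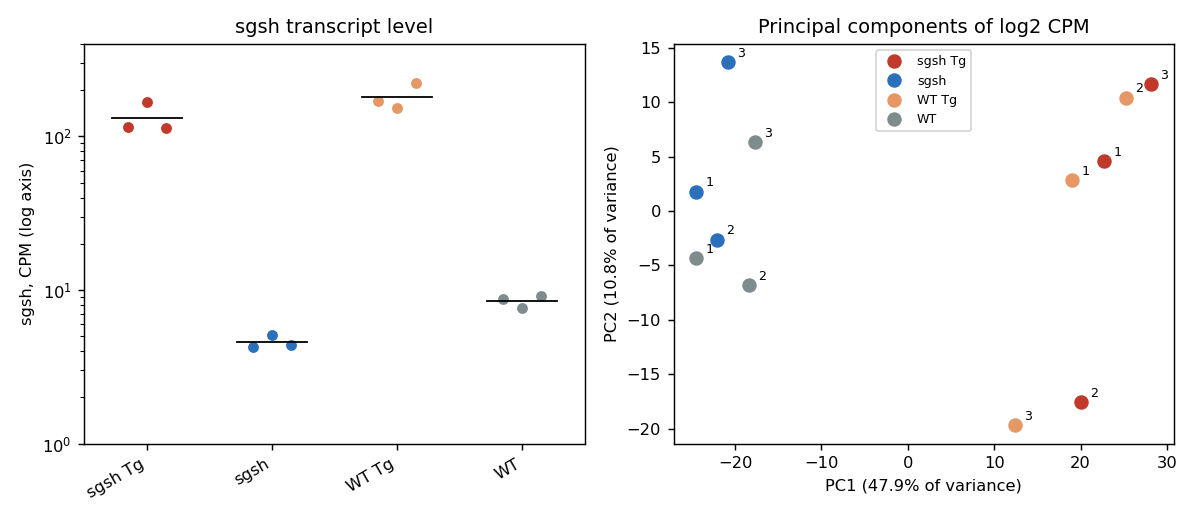
sgsh CPM on a log axis (left, 1 point per library, bar at the mean) and the first 2 principal components of log2 CPM (right) for the 12 libraries of 2-month brain. The 3 sgsh Tg libraries lie between 113 and 168 CPM and the 3 sgsh libraries between 4.27 and 5.11 CPM, and the first component, with 47.9% of the variance, separates the 6 transgenic libraries from the 6 without the transgene.

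Across the transcriptome, 3627 of 19749 genes (18.4%) were called between sgsh Tg and sgsh brains: 1748 (8.85%) rose and 1879 (9.51%) fell. Most changes were small. The median size over called genes was 0.44 on the log2 scale, 1.36-fold, 681 genes passed a log2 difference of 1 and 88 passed 3. The CPM ranges of sgsh Tg and sgsh brains did not overlap for 3526 called genes (97.2%), against 33.1% of all genes tested. The same transgene in wild-type fish gave 3009 calls (15.2%), 1341 higher and 1668 lower. The mutant and wild-type comparisons share no library: 1743 genes were called in both, 48.1% of the calls in mutants and 57.9% of those in wild type, and 1730 of them moved the same way. Of the 3627 genes called in mutants, 3370 (92.9%) had the same sign in wild type, against 71.6% of all genes. The test of the difference of the transgene effect between genotypes called 25 genes (0.127%; 16 or 0.081% higher and 9 or 0.0456% lower; 1924 at an unadjusted p below 0.05; 109 by DESeq2). The direction of most changes called in mutants was thus also measured in fish with an intact sgsh gene, and the size differed between the genotypes, by this test, for 25 genes.

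**Figure D2:**
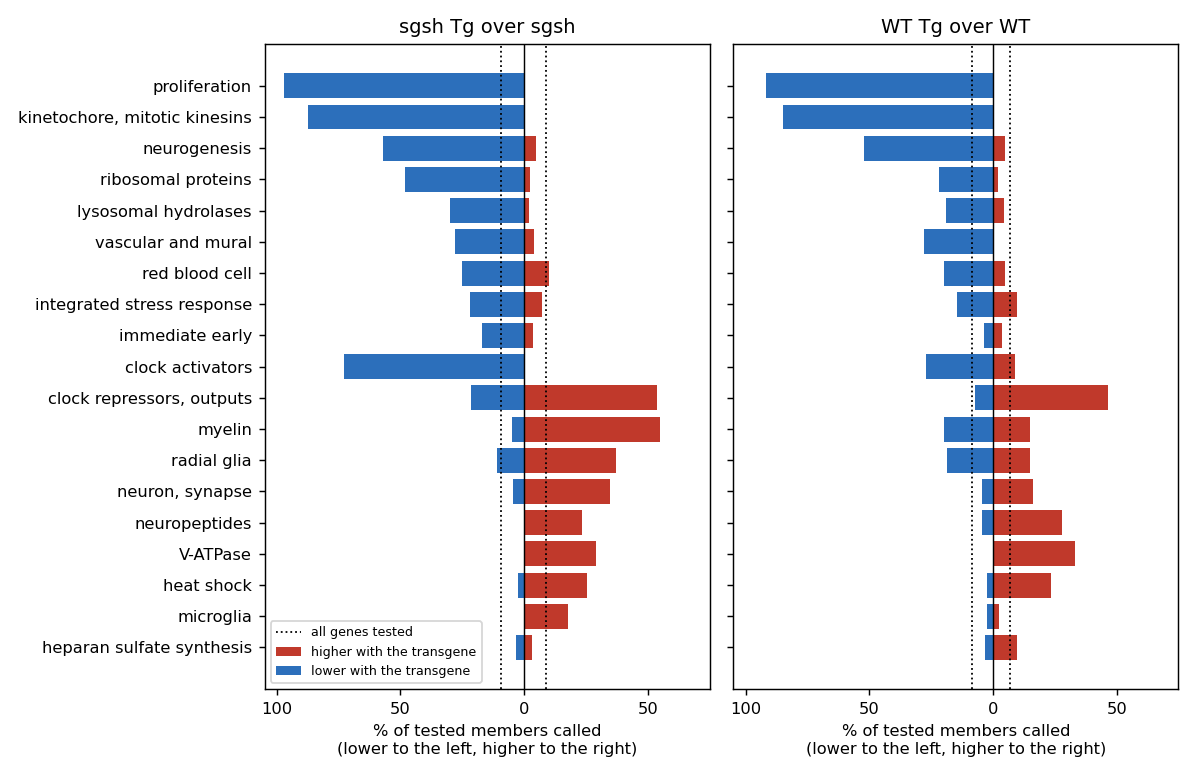
Percentage of the tested members of selected gene lists called higher or lower in sgsh Tg than in sgsh brains (left) and in WT Tg than in WT brains (right), with dotted lines at the percentage of all genes. The kinetochore and mitotic kinesin list and the neurogenesis list were assembled after the values had been seen. Lists left out include the interferon, meningeal, ependymal and skin lists, given in the text. In the proliferation list 36 of 37 members are lower in the mutant panel and 34 of 37 in the wild-type panel, while the myelin list has 11 of 20 members higher in the mutant panel and 3 of 20 in the wild-type panel.

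Genes of the cell cycle fell together. Of 37 proliferation genes tested, 36 (97.3%, against 9.51% of all genes) fell and 0 rose. Their median log2 fold change was -1.31, where the median over all genes was 0.0004. Summed over the list, the level was 632, 564 and 595 CPM in sgsh Tg brains, against 1355, 1195 and 1039 CPM in sgsh brains, and the groups did not overlap. In wild type the sums were 643 to 687 CPM in WT Tg and 1178 to 1279.9 CPM in WT brains, with 34 of 37 members lower (median -1.15). In whole-brain RNA, fewer cells of a type and less RNA per cell cannot be told apart.

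The proliferation antigen gene mki67, transcribed in dividing cells, had 32.8, 27.5 and 33.4 CPM in sgsh Tg brains, against 104, 88.7 and 79.1 CPM in sgsh brains (log2 fold change -1.54 ± 0.10 SE, edgeR adjusted p = 2.0e-06). Every sgsh Tg library lay far below every sgsh library. The DNA topoisomerase gene top2a had 39.9, 34.2 and 36.5 CPM in sgsh Tg brains, against 127, 108 and 74.6 CPM in sgsh brains (log2 fold change -1.48 ± 0.15 SE, edgeR adjusted p = 3.2e-05), with replicate 3 of the sgsh brains the lowest of its group and still above all sgsh Tg libraries. For DNA replication, the same direction was measured in chaf1a, a subunit of the chromatin assembly factor (12.3 ± 0.155 CPM in sgsh Tg and 23.5 ± 0.942 CPM in sgsh brains, log2 fold change -0.93, edgeR adjusted p = 2.2e-06). The ribonucleotide reductase gene rrm1 averaged 30.3 ± 1.54 CPM in sgsh Tg and 53.8 ± 1.88 CPM in sgsh brains (log2 fold change -0.83, edgeR adjusted p = 6.8e-06), and tyms, which makes thymidylate, averaged 3.85 ± 0.206 CPM in sgsh Tg and 10.3 ± 1.08 CPM in sgsh brains (log2 fold change -1.42, edgeR adjusted p = 2.3e-05). The epigenetic maintenance factor uhrf1 fell by 1.17 on the log2 scale (edgeR adjusted p = 3.1e-05).

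Further lists of the division machinery, assembled after the values had been seen, moved the same way. Of 40 kinetochore and mitotic kinesin genes, 35 (87.5%) fell and 0 rose (median -1.31, with 34 lower in wild type). Of 15 condensin and cohesin genes, 11 (73.3%) fell and 0 rose (median -0.93). Over all genes 9.51% fell and 8.85% rose. The condensin core gene smc4 had 13.3, 14.1 and 13.0 CPM in sgsh Tg brains, against 37.4, 34.5 and 31.7 CPM in sgsh brains (log2 fold change -1.36 ± 0.08 SE, edgeR adjusted p = 8.8e-07), without overlap. Among 42 genes of immature neurons and neural progenitors, 24 (57.1%) fell and 2 (4.76%) rose (median -0.39). They include foxn4, a transcription factor of neural progenitors, with 8.60, 8.44 and 8.83 CPM in sgsh Tg brains, against 18.6, 16.7 and 17.7 CPM in sgsh brains (log2 fold change -1.04 ± 0.08 SE, edgeR adjusted p = 8.8e-06). The neuronal tubulin gene tuba1a averaged 893 ± 41.2 CPM in sgsh Tg and 1381 ± 73.9 CPM in sgsh brains (log2 fold change -0.63, edgeR adjusted p = 1.3e-05), tubb5 averaged 973 ± 59.0 CPM in sgsh Tg and 1568 ± 78.3 CPM in sgsh brains (log2 fold change -0.69, edgeR adjusted p = 1.6e-05) and sox11b, a factor of newborn neurons, averaged 158 ± 6.18 CPM in sgsh Tg and 255 ± 19.7 CPM in sgsh brains (log2 fold change -0.69, edgeR adjusted p = 1.9e-05). These abundant neuronal transcripts fell less than the cell-cycle genes.

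**Figure D3:**
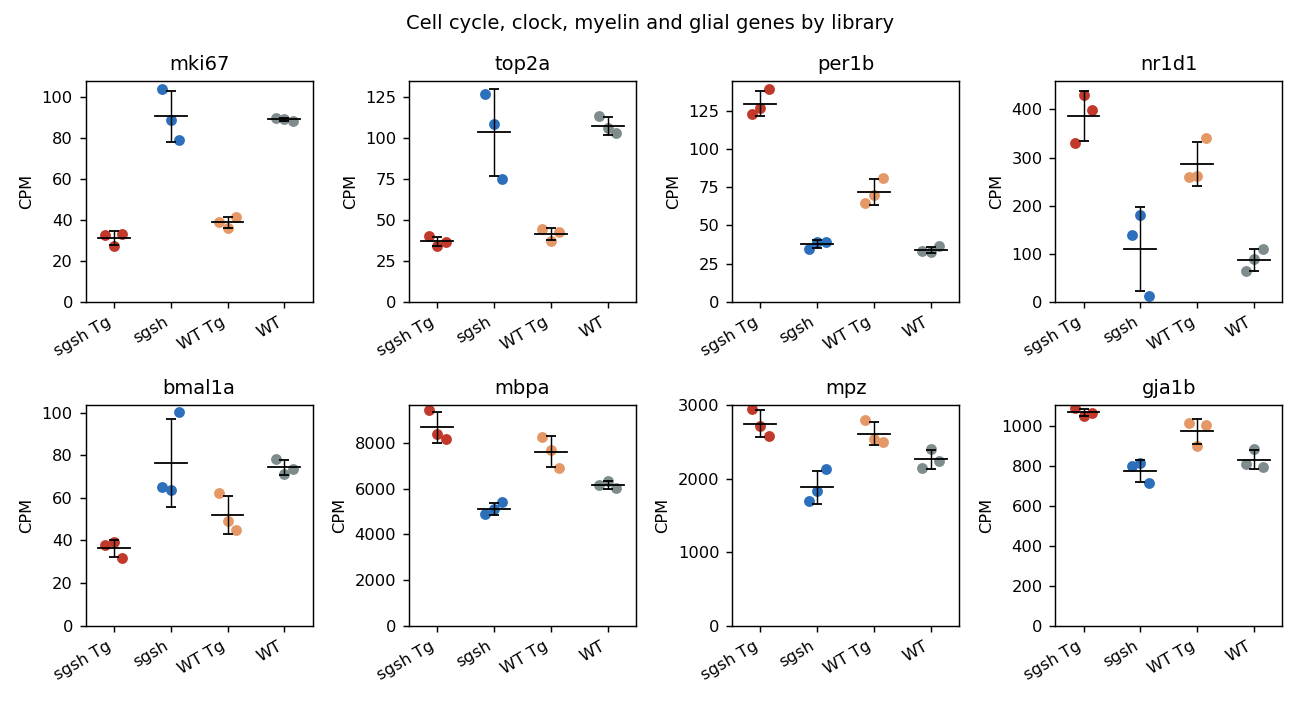
CPM per library of 8 genes of the cell cycle, the clock, myelin and glia in the 4 groups of 2-month brain (points; line and bar, mean ± SD of 3 libraries). mki67 lies between 27.5 and 33.4 CPM in sgsh Tg brains and between 79.1 and 104 CPM in sgsh brains, and the lowest nr1d1 value is that of replicate 3 of the sgsh brains, at 11.9 CPM.

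Circadian clock genes changed in both arms of the loop. In this loop the activators Bmal and Clock switch on the period, cryptochrome and Rev-erb genes, whose products repress them. Of 28 repressor and output genes, 15 (53.6%) rose and 6 (21.4%) fell in sgsh Tg brains (median 0.98). Of 11 activator genes 0 rose and 8 (72.7%) fell (median -0.92). The shares over all genes were 8.85% and 9.51%. Wild type gave 13 (46.4%) higher and 2 (7.14%) lower repressor or output genes, and 1 (9.09%) higher and 3 (27.3%) lower activator genes. There 6.79% and 8.45% of all genes were higher and lower. The hour at which brains were collected is not in the labels, so its part in these levels was not tested.

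Among the repressors, the period gene per1b had 123, 127 and 139 CPM in sgsh Tg brains, against 34.6, 39.0 and 39.1 CPM in sgsh brains (log2 fold change 1.79 ± 0.09 SE, edgeR adjusted p = 1.5e-07). The 3 sgsh Tg libraries were close together and far above the 3 sgsh libraries. In wild type per1b had 64.3, 69.7 and 81.1 CPM in WT Tg brains, against 33.2, 32.7 and 36.3 CPM in WT brains (log2 fold change 1.07 ± 0.09 SE, edgeR adjusted p = 9.6e-06), and the transgene effect was larger in mutants by 0.71 on the log2 scale (edgeR adjusted p of the difference = 0.042). The cryptochrome gene cry2 averaged 80.5 ± 2.71 CPM in sgsh Tg and 22.9 ± 2.46 CPM in sgsh brains (log2 fold change 1.81, edgeR adjusted p = 2.1e-06), per3 averaged 56.5 ± 1.505 CPM in sgsh Tg and 22.9 ± 1.22 CPM in sgsh brains (log2 fold change 1.302, edgeR adjusted p = 3.7e-06) and the basic helix-loop-helix repressor gene bhlhe40 averaged 125 ± 5.25 CPM in sgsh Tg and 53.4 ± 12.9 CPM in sgsh brains (log2 fold change 1.22, edgeR adjusted p = 1.2e-04). The cryptochrome gene cry3b went the other way, with 192, 221 and 221 CPM in sgsh Tg brains, against 318, 316 and 364 CPM in sgsh brains (log2 fold change -0.65 ± 0.07 SE, edgeR adjusted p = 8.2e-05).

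The Rev-erb gene nr1d1, which the rule for named genes did not take and which was chosen after its values were seen, had 329.8, 431 and 398 CPM in sgsh Tg brains, against 138, 181 and 11.9 CPM in sgsh brains (log2 fold change 1.81 ± 0.56 SE, edgeR adjusted p = 0.038). Replicate 3 of the sgsh brains was far below its companions, although no sgsh library reached the lowest sgsh Tg library. The same pool was the lowest of its group for per1a and the highest for rorcb, a ROR-family activator gene, at 14.3, 15.9 and 89.2 CPM in the 3 sgsh libraries. Without that pool, 16 repressor and output genes rose and 6 fell, and 8 activator genes fell. The count of lower activators was 5 without sgsh Tg replicate 1 and 5 in the 6 mutant libraries fitted alone. Among the activators, bmal1a had 38.0, 39.4 and 31.9 CPM in sgsh Tg brains, against 65.2, 63.9 and 100.4 CPM in sgsh brains (log2 fold change -1.07 ± 0.16 SE, edgeR adjusted p = 5.8e-04), and bmal1b had 19.0, 20.1 and 17.8 CPM in sgsh Tg brains, against 35.9, 37.6 and 44.8 CPM in sgsh brains (log2 fold change -1.05 ± 0.10 SE, edgeR adjusted p = 3.1e-05). Both Bmal genes were lower in every sgsh Tg library than in every sgsh library. The Clock gene clockb averaged 31.9 ± 0.967 CPM in sgsh Tg and 46.2 ± 4.73 CPM in sgsh brains (log2 fold change -0.53, edgeR adjusted p = 0.0011).

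Myelin genes rose in mutants. Of 20 genes of myelin and the oligodendrocyte lineage, 11 (55%) rose and 1 (5%) fell (median 0.32), against 8.85% and 9.51% of all genes. The result held at 10 or 11 higher and 1 lower under each alternative run. Wild type gave 3 (15%) higher and 4 (20%) lower (median 0.0054), against 6.79% and 8.45% of all genes. The summed level of the list was 17659, 15933 and 15366 CPM in sgsh Tg brains, against 10262, 10736 and 11659 CPM in sgsh brains. WT Tg brains held 14105 to 15984 CPM and WT brains 12556 to 13379.6 CPM, so the sgsh brains were the lowest of the 4 groups. No member passed the test of a difference between genotypes.

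The myelin basic protein gene mbpa, which codes for the protein that compacts the sheath, had 9461, 8427 and 8204 CPM in sgsh Tg brains, against 4876, 5113 and 5402 CPM in sgsh brains (log2 fold change 0.76 ± 0.07 SE, edgeR adjusted p = 1.9e-05). The groups did not overlap. In wild type mbpa had 8292, 7702 and 6912 CPM in WT Tg brains, against 6165, 6347 and 6017 CPM in WT brains (log2 fold change 0.31 ± 0.07 SE, edgeR adjusted p = 0.0090), and the difference between the genotypes did not pass the test (edgeR adjusted p = 0.10). The adhesion protein gene mpz had 2942, 2722 and 2579.7 CPM in sgsh Tg brains, against 1692, 1829 and 2126 CPM in sgsh brains (log2 fold change 0.55 ± 0.08 SE, edgeR adjusted p = 4.5e-04), with no overlap. The tetraspanin gene tspan2a, of the oligodendrocyte lineage, averaged 346 ± 7.08 CPM in sgsh Tg and 267 ± 22.1 CPM in sgsh brains (log2 fold change 0.37, edgeR adjusted p = 4.5e-04). The neuregulin receptor gene erbb3b averaged 19.4 ± 2.49 CPM in sgsh Tg and 10.9 ± 1.27 CPM in sgsh brains (log2 fold change 0.83, edgeR adjusted p = 2.3e-04), and sox10, a transcription factor of the lineage, averaged 51.3 ± 2.25 CPM in sgsh Tg and 36.9 ± 3.68 CPM in sgsh brains (log2 fold change 0.48, edgeR adjusted p = 4.7e-04). The member that fell was cnp, the gene of a phosphodiesterase of non-compact myelin, with 199, 167 and 179 CPM in sgsh Tg brains, against 239, 236 and 255 CPM in sgsh brains (log2 fold change -0.42 ± 0.06 SE, edgeR adjusted p = 4.6e-04).

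Among 27 genes of radial glia and astroglia, 10 rose and 3 fell (median 0.17), against 4 and 5 in wild type. The gap junction gene gja1b had 1085, 1048 and 1065 CPM in sgsh Tg brains, against 795, 812 and 712 CPM in sgsh brains (log2 fold change 0.46 ± 0.06 SE, edgeR adjusted p = 2.1e-04), with no overlap. cyp19a1b, the brain aromatase gene expressed in radial glia of fish, had 337, 458 and 401 CPM in sgsh Tg brains, against 196, 196 and 219 CPM in sgsh brains (log2 fold change 0.97 ± 0.17 SE, edgeR adjusted p = 0.0018). In wild type it had 251, 247 and 281 CPM in WT Tg brains, against 388, 211 and 361 CPM in WT brains and was not called (log2 fold change -0.30, edgeR adjusted p = 0.26), and the difference between genotypes did not pass the test (edgeR adjusted p = 0.071). The intermediate filament gene of neural stem cells, nes, had 21.8, 19.9 and 19.4 CPM in sgsh Tg brains, against 31.7, 30.8 and 29.6 CPM in sgsh brains (log2 fold change -0.59 ± 0.08 SE, edgeR adjusted p = 2.9e-04), and fell while gja1b rose. The fatty acid binding protein gene fabp7b averaged 38.3 ± 5.11 CPM in sgsh Tg and 21.7 ± 3.14 CPM in sgsh brains (log2 fold change 0.82, edgeR adjusted p = 0.0011), and the glutamate transporter gene slc1a3a averaged 35.5 ± 1.18 CPM in sgsh Tg and 28.2 ± 0.55 CPM in sgsh brains (log2 fold change 0.33, edgeR adjusted p = 0.0011). The more abundant paralog fabp7a, given here as a radial glia marker, went the other way. It lay at 870 to 897 CPM in sgsh Tg brains, against 964 to 1337 CPM in sgsh brains. WT Tg brains held 896 to 952 CPM of fabp7a and WT brains 1354 to 1441 CPM. The prostaglandin D synthase gene ptgdsb.1 averaged 132 ± 11.8 CPM in sgsh Tg and 31.8 ± 17.4 CPM in sgsh brains (log2 fold change 2.05, edgeR adjusted p = 5.2e-04).

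Of 39 microglia and macrophage genes, 7 (17.9%) rose and 0 fell, against 8.85% and 9.51% of all genes (median 0.17, with 27 positive). In wild type 1 was higher and 1 lower. The list's sum overlapped, at 1645, 1307 and 1259 CPM in sgsh Tg brains, against 1063, 1149 and 1376 CPM in sgsh brains. The markers mpeg1.1, lcp1 and p2ry12 also overlapped between these groups, whereas csf1ra did not (14.6 to 19.5 CPM in sgsh Tg, 12.4 to 13.4 CPM in sgsh brains). The NADPH oxidase gene cybb had 27.2, 20.5 and 24.4 CPM in sgsh Tg brains, against 8.89, 9.91 and 8.98 CPM in sgsh brains (log2 fold change 1.38 ± 0.14 SE, edgeR adjusted p = 4.2e-05), and its groups did not overlap. The colony-stimulating factor receptor gene csf1rb averaged 6.78 ± 0.711 CPM in sgsh Tg and 3.96 ± 0.875 CPM in sgsh brains (log2 fold change 0.77, edgeR adjusted p = 0.0048). The apolipoprotein gene apoeb had 588, 431 and 432 CPM in sgsh Tg brains, against 343, 368 and 399.5 CPM in sgsh brains (log2 fold change 0.39 ± 0.10 SE, edgeR adjusted p = 0.018), with replicate 1 of the sgsh Tg brains well above the others. The number of higher members was 3 without sgsh replicate 1, 4 without sgsh replicate 2, 12 without sgsh replicate 3 and 4 in the 6 mutant libraries fitted alone.

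Of 43 neuron and synapse genes, 15 (34.9%) rose and 2 (4.65%) fell, against 8.85% and 9.51% of all genes (median 0.12, with 7 and 2 in wild type). The steps were small: snap25a, a fusion protein gene of synaptic vesicles, had 2360.1, 2560.3 and 2441 CPM in sgsh Tg brains, against 2004, 2030.4 and 2177 CPM in sgsh brains (log2 fold change 0.24 ± 0.05 SE, edgeR adjusted p = 0.0026), and syn2b, a vesicle-binding synapsin gene, averaged 258 ± 22.8 CPM in sgsh Tg and 190.2 ± 7.99 CPM in sgsh brains (log2 fold change 0.44, edgeR adjusted p = 0.0015). Lower were stmn2b, a growth cone gene (log2 fold change -0.32, edgeR adjusted p = 8.5e-04), and neflb, a neurofilament gene (log2 fold change -0.60, edgeR adjusted p = 0.0025). The count of higher members rested on the libraries used: it was 4 in the 6 mutant libraries fitted alone, 5 without sgsh Tg replicate 2, 6 without sgsh Tg replicate 3, 7 without sgsh replicate 1 and 9 without sgsh replicate 2. Of 43 neuropeptide genes, 10 (23.3%) rose and 0 fell, against 8.85% and 9.51% of all genes (median 0.18, with 12 and 2 in wild type). pmchl, a melanin-concentrating hormone gene of the hypothalamus, had 21.3, 19.9 and 17.7 CPM in sgsh Tg brains, against 11.4, 12.4 and 8.74 CPM in sgsh brains (log2 fold change 0.86 ± 0.12 SE, edgeR adjusted p = 4.7e-04). adcyap1b, a PACAP gene, averaged 458 ± 22.7 CPM in sgsh Tg and 372 ± 19.1 CPM in sgsh brains (log2 fold change 0.30, edgeR adjusted p = 7.5e-04).

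Among the listed genes that degrade or modify heparan sulfate, sgsh stood alone in the size of its change. Of 11 such genes 2 (18.2%) rose, sgsh and gnsa, and 3 (27.3%) fell, sulf1, sulf2a and ids, against 8.85% and 9.51% of all genes. The rise of sgsh, the gene the transgene carries, was set by the design. sulf1 and sulf2a code for extracellular sulfatases, not for lysosomal enzymes. Outside these genes, only gnsa rose and only ids fell. In wild type 2 rose, sgsh and gnsa, and 1 fell, ids. There gnsa had a log2 fold change of 0.25 (edgeR adjusted p = 0.0064) and ids of -0.40 (edgeR adjusted p = 0.044). In wild type sulf1 and sulf2a were not called (log2 fold change -0.01 and -0.12, edgeR adjusted p = 0.96 and 0.13). gnsa, a glucosamine-6-sulfatase gene, had 131, 127 and 121 CPM in sgsh Tg brains, against 101, 102 and 107 CPM in sgsh brains (log2 fold change 0.29 ± 0.05 SE, edgeR adjusted p = 0.0018). ids, the iduronate-2-sulfatase gene, had 5.16, 5.93 and 5.25 CPM in sgsh Tg brains, against 6.97, 8.02 and 6.54 CPM in sgsh brains (log2 fold change -0.40 ± 0.12 SE, edgeR adjusted p = 0.037), and sulf1, an extracellular sulfatase gene, had 30.3, 24.2 and 26.8 CPM in sgsh Tg brains, against 37.6, 44.7 and 33.1 CPM in sgsh brains (log2 fold change -0.51 ± 0.11 SE, edgeR adjusted p = 0.0051). These groups of libraries did not overlap, and each step was small beside that of sgsh. Of 31 heparan sulfate synthesis genes 1 (3.23%) rose and 1 (3.23%) fell, below the 8.85% and 9.51% of all genes, with 3 and 1 in wild type. Of 14 core protein genes 0 rose and 3 (21.4%) fell, with 1 and 4 in wild type. The sulfotransferase gene ndst1a averaged 74.3 ± 6.01 CPM in sgsh Tg and 51.8 ± 2.63 CPM in sgsh brains (log2 fold change 0.52, edgeR adjusted p = 0.012), and the glypican gene gpc5b averaged 21.4 ± 1.34 CPM in sgsh Tg and 28.9 ± 2.45 CPM in sgsh brains (log2 fold change -0.43, edgeR adjusted p = 0.0020). Of 37 genes of growth factor signalling that binds heparan sulfate, 6 (16.2%, against 8.85% of all genes) rose and 0 fell, with 5 and 1 in wild type. Those that rose include the receptor genes fgfr1a (50.1 ± 1.65 CPM in sgsh Tg and 35.7 ± 1.53 CPM in sgsh brains, log2 fold change 0.49, edgeR adjusted p = 2.3e-04) and fgfr2 (181 ± 2.50 CPM in sgsh Tg and 149 ± 6.00 CPM in sgsh brains, log2 fold change 0.28, edgeR adjusted p = 0.0024).

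Of 47 lysosomal hydrolase genes, 1 (2.13%) rose and 14 (29.8%) fell (median -0.18), where 8.85% and 9.51% of all genes did. In wild type 2 rose and 9 fell. The list's sum did not follow: it was 3052, 2908 and 2836 CPM in sgsh Tg brains, against 2845, 2870.5 and 2878 CPM in sgsh brains, overlapping ranges. The member that rose, the cathepsin gene ctsf, was abundant, with 706, 703 and 687 CPM in sgsh Tg brains, against 518, 533 and 558 CPM in sgsh brains (log2 fold change 0.38 ± 0.04 SE, edgeR adjusted p = 4.5e-05). Among those that fell, ctsa, the gene of the protective protein cathepsin A, had 23.3, 20.98 and 19.8 CPM in sgsh Tg brains, against 30.4, 29.1 and 28.5 CPM in sgsh brains (log2 fold change -0.46 ± 0.08 SE, edgeR adjusted p = 0.0013), and pla2g15, a lysosomal phospholipase gene, had 18.9, 19.0 and 16.1 CPM in sgsh Tg brains, against 28.1, 26.9 and 28.0 CPM in sgsh brains (log2 fold change -0.62 ± 0.08 SE, edgeR adjusted p = 2.8e-04). dpp7, a dipeptidyl peptidase gene, averaged 26.5 ± 2.099 CPM in sgsh Tg and 35.4 ± 1.62 CPM in sgsh brains (log2 fold change -0.42, edgeR adjusted p = 0.0033). The list's lower calls numbered 9 without sgsh Tg replicate 2 and 9 without sgsh Tg replicate 3. Of 24 subunit genes of the vacuolar ATPase, the proton pump that acidifies lysosomes and synaptic vesicles, 7 (29.2%) rose and 0 fell (median 0.12). The shares over all genes were 8.85% and 9.51%. atp6v1f had 115, 113 and 117 CPM in sgsh Tg brains, against 94.1, 90.1 and 88.0 CPM in sgsh brains (log2 fold change 0.34 ± 0.04 SE, edgeR adjusted p = 1.8e-04). In wild type 8 rose and 0 fell, and in mutants the count was 4 without sgsh Tg replicate 3. Of 37 lysosomal membrane genes 4 (10.8%) rose and 1 (2.7%) fell, where 8.85% and 9.51% of all genes did, and wild type gave 1 higher and 3 lower. Of 38 autophagy genes 7 (18.4%) rose and 1 (2.63%) fell, with 5 and 2 in wild type. The adaptor gene sqstm1 had 73.1, 67.6 and 63.0 CPM in sgsh Tg brains, against 45.9, 48.7 and 52.1 CPM in sgsh brains (log2 fold change 0.47 ± 0.08 SE, edgeR adjusted p = 9.2e-04), and plekhm1, which links late endosomes to lysosomes, had 18.3, 19.8 and 20.002 CPM in sgsh Tg brains, against 32.6, 30.02 and 34.7 CPM in sgsh brains (log2 fold change -0.75 ± 0.10 SE, edgeR adjusted p = 2.5e-04).

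Among cytosolic ribosomal protein genes, falls outnumbered rises. Of 91 genes of the list, 44 (48.4%) fell and 2 (2.2%) rose (median -0.21), against 9.51% and 8.85% of all genes. In wild type 20 (22%) fell and 2 (2.2%) rose, against 8.45% and 6.79% of all genes. rpl3 had 960.4, 863 and 873 CPM in sgsh Tg brains, against 1234, 1132 and 1129 CPM in sgsh brains (log2 fold change -0.37 ± 0.05 SE, edgeR adjusted p = 3.7e-04). The count of lower members was 21 without sgsh replicate 1, 22 without sgsh Tg replicate 2 and 24 without sgsh Tg replicate 3. The elongation factor gene eef1a1l1, among the most abundant transcripts, averaged 3553 ± 195 CPM in sgsh Tg and 4399 ± 210.5 CPM in sgsh brains (log2 fold change -0.31, edgeR adjusted p = 7.6e-04), and the actin gene actb2 averaged 4802 ± 279 CPM in sgsh Tg and 5864 ± 293 CPM in sgsh brains (log2 fold change -0.29, edgeR adjusted p = 0.0027). The ubiquitin gene ubc averaged 1467 ± 80.5 CPM in sgsh Tg and 1807 ± 14.1 CPM in sgsh brains (log2 fold change -0.30, edgeR adjusted p = 0.0040). Of 6 ubiquitin genes 2 (33.3%, against 9.51% of all genes) fell and 0 rose.

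Mitochondrial transcripts were higher. Of 13 mitochondrially encoded genes 7 (53.8%, against 8.85% of all genes) rose and 0 fell (4 and 0 without sgsh replicate 1 or without sgsh replicate 2). Wild type gave 3 (23.1%) higher and 1 (7.69%) lower, against 6.79% and 8.45% of all genes. Transcripts of the mitochondrial genome made up 5.39%, 4.56% and 4.66% of counts in sgsh Tg brains, against 4.27%, 4.18% and 4.39% in sgsh brains. The cytochrome oxidase gene mt-co2 had 6643, 5383 and 5835 CPM in sgsh Tg brains, against 4845, 4667 and 4691 CPM in sgsh brains (log2 fold change 0.33 ± 0.06 SE, edgeR adjusted p = 0.0031). Of 101 nuclear genes of oxidative phosphorylation, 15 (14.9%, against 8.85% of all genes) rose and 0 fell (median 0.09). In wild type 6 (5.94%, against 6.79% of all genes) rose and 2 fell. sdha, a succinate dehydrogenase subunit gene, had 514, 539.9 and 519 CPM in sgsh Tg brains, against 398, 384 and 386 CPM in sgsh brains (log2 fold change 0.43 ± 0.04 SE, edgeR adjusted p = 3.2e-05), without overlap.

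Lists of stress, hormone and sterol genes were read against 8.85% higher and 9.51% lower over all genes. Of 43 heat shock genes 11 (25.6%) rose and 1 (2.33%) fell, with 10 and 1 in wild type, and 7 and 1 in mutants without sgsh Tg replicate 3. The mitochondrial chaperone gene hspa9 had 318, 329 and 332 CPM in sgsh Tg brains, against 266, 258 and 242 CPM in sgsh brains (log2 fold change 0.36 ± 0.05 SE, edgeR adjusted p = 2.2e-04), and hspa12b, a distant HSP70 relative, had 27.4, 30.1 and 24.8 CPM in sgsh Tg brains, against 7.81, 7.48 and 9.16 CPM in sgsh brains (log2 fold change 1.75 ± 0.20 SE, edgeR adjusted p = 8.0e-05). Of 41 genes of the integrated stress response, serine synthesis and unfolded protein response, 3 (7.32%) rose and 9 (22%) fell (0 and 7 without sgsh replicate 1, 0 and 6 without sgsh Tg replicate 2). Lower were trib3, a target of Atf4 and Chop (21.8 ± 1.79 CPM in sgsh Tg and 32.5 ± 2.15 CPM in sgsh brains, log2 fold change -0.58, edgeR adjusted p = 3.4e-04), and ddit4, an inhibitor of mTORC1 (21.7 ± 1.98 CPM in sgsh Tg and 48.6 ± 9.11 CPM in sgsh brains, log2 fold change -1.16, edgeR adjusted p = 5.5e-04). Of 33 glucocorticoid and metabolic genes 4 (12.1%) rose and 9 (27.3%) fell (5 and 4 in wild type). fkbp5, a glucocorticoid receptor target, had 98.1, 183 and 115 CPM in sgsh Tg brains, against 356, 317 and 421 CPM in sgsh brains (log2 fold change -1.46 ± 0.27 SE, edgeR adjusted p = 0.0022). hsd11b2, which inactivates cortisol, had 21.9, 24.9 and 15.1 CPM in sgsh Tg brains, against 46.1, 52.8 and 113 CPM in sgsh brains (log2 fold change -1.78 ± 0.28 SE, edgeR adjusted p = 7.4e-04). In both genes the highest sgsh library was replicate 3, and the groups did not overlap. Of 33 cholesterol genes 3 (9.09%) rose in mutants, near the share of all genes, and 1 (3.03%) fell, below it. Wild type gave 1 higher and 11 lower. The difference between the genotypes was tested per gene only. The transporter gene abca1a averaged 341 ± 15.4 CPM in sgsh Tg and 265 ± 15.1 CPM in sgsh brains (log2 fold change 0.36, edgeR adjusted p = 0.0015). Of 21 p53 and growth arrest genes 1 (4.76%) rose and 4 (19.0%) fell, among them ccng2, an atypical cyclin gene (29.7 ± 0.164 CPM in sgsh Tg and 39.5 ± 0.812 CPM in sgsh brains, log2 fold change -0.41, edgeR adjusted p = 3.9e-04).

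Of 53 immediate-early genes, which neurons switch on within minutes of activity, 25 had a positive log2 fold change (median -0.05). Against 8.85% and 9.51% of all genes, 2 (3.77%) were called higher and 9 (17%) lower. The lower ones include dusp1, a MAP kinase phosphatase gene (12.9 ± 0.51 CPM in sgsh Tg and 19.5 ± 3.31 CPM in sgsh brains, log2 fold change -0.60, edgeR adjusted p = 0.0097), and egr2b, a zinc-finger transcription factor gene (8.91 ± 0.873 CPM in sgsh Tg and 14.0 ± 1.31 CPM in sgsh brains, log2 fold change -0.65, edgeR adjusted p = 0.0018). Without sgsh Tg replicate 3 the counts were 1 higher and 5 lower. Wild type gave 2 and 2. Of 61 interferon and antigen presentation genes 8 (13.1%) rose and 6 (9.84%) fell, shares near those of all genes (8.85% and 9.51%). Of its members, the beta-2-microglobulin gene b2ml had 293, 256 and 264 CPM in sgsh Tg brains, against 187, 186 and 231 CPM in sgsh brains (log2 fold change 0.43 ± 0.08 SE, edgeR adjusted p = 0.0017), and rsad2, an antiviral gene, had 8.97, 8.13 and 8.09 CPM in sgsh Tg brains, against 3.13, 4.07 and 4.95 CPM in sgsh brains (log2 fold change 1.05 ± 0.16 SE, edgeR adjusted p = 5.4e-04). The guanylate-binding protein gene gbp3 fell and had 6.58, 6.61 and 6.30 CPM in sgsh Tg brains, against 9.92, 9.85 and 11.4 CPM in sgsh brains (log2 fold change -0.68 ± 0.13 SE, edgeR adjusted p = 0.0025).

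Genes of vessels, blood and other tissues of the dissected brain were examined for what the pools held. Their counts were read against 8.85% higher and 9.51% lower over all genes. Of the vascular list 4% rose and 28% fell. Of the red blood cell list 10% rose, near the share of all genes, and 25% fell. Of 25 vascular genes 1 rose and 7 fell, including cldn5a, a tight junction gene (19.7 ± 0.981 CPM in sgsh Tg and 29.8 ± 3.39 CPM in sgsh brains, log2 fold change -0.60, edgeR adjusted p = 3.7e-04), slc16a1a, a monocarboxylate transporter gene (7.99 ± 2.67 CPM in sgsh Tg and 22.3 ± 4.80 CPM in sgsh brains, log2 fold change -1.48, edgeR adjusted p = 2.9e-04), and kdr, a VEGF receptor gene (12.3 ± 1.52 CPM in sgsh Tg and 17.9 ± 2.102 CPM in sgsh brains, log2 fold change -0.54, edgeR adjusted p = 0.0032). The pericyte gene rgs5a rose (29.8 ± 3.65 CPM in sgsh Tg and 18.5 ± 2.18 CPM in sgsh brains, log2 fold change 0.69, edgeR adjusted p = 8.5e-04). Red blood cell transcripts were lower with the transgene: the summed level of the list was 867, 778 and 853 CPM in sgsh Tg brains, against 1411, 1437 and 1219 CPM in sgsh brains, and of 20 genes tested 2 rose and 5 fell. WT Tg brains held 725 to 1016 CPM and WT brains 1195 to 1973 CPM. The part of residual blood in the vascular results was not tested.

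Skeletal muscle transcripts differed between pools. The muscle list summed to 1009, 192 and 3187 CPM in sgsh Tg brains, against 208, 188 and 274 CPM in sgsh brains, so replicates 1 and 3 of sgsh Tg were high and replicate 2 was within the range of sgsh brains. WT Tg brains held 819.7, 2851 and 158 CPM, with replicate 3 low, and WT brains 173, 187 and 411 CPM. Among the transgenic libraries, these 2 low ones are also those set apart on the second principal component. Of 34 muscle genes tested 5 (14.7%) rose and 1 (2.94%) fell, against 8.85% and 9.51% of all genes. The higher calls numbered 20 without sgsh Tg replicate 2, 1 without sgsh Tg replicate 1, and 0 without sgsh Tg replicate 3 or without any single sgsh replicate. The parvalbumin gene pvalb2 had 126, 8.32 and 448 CPM in sgsh Tg brains, against 8.83, 5.29 and 7.76 CPM in sgsh brains (log2 fold change 4.73 ± 1.41 SE, edgeR adjusted p = 0.033), overlapping at sgsh Tg replicate 2. Heat shock, mitochondrial and metabolic genes are also expressed in muscle, and the part of muscle RNA in their levels was not tested.

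**Figure D4:**
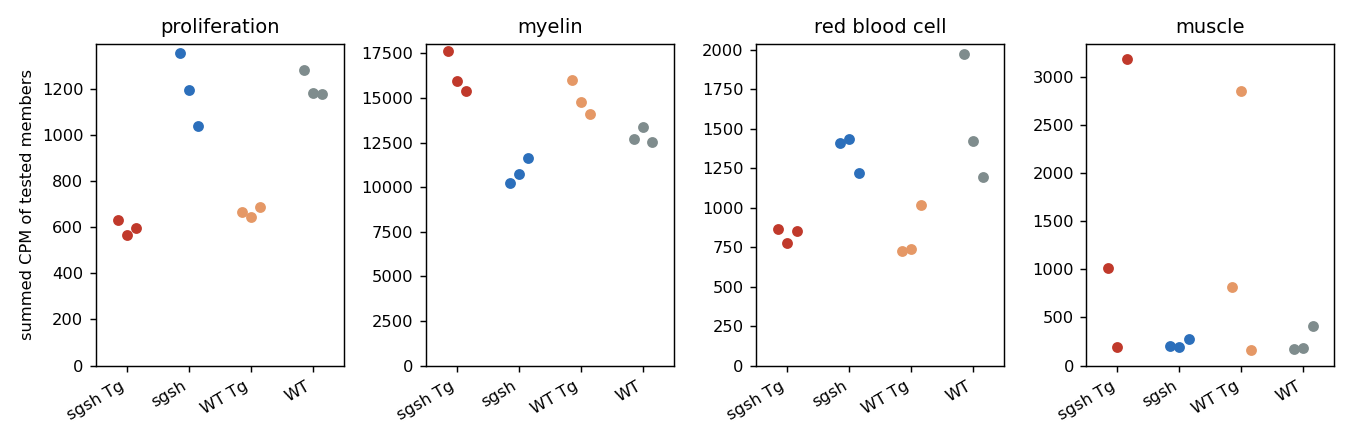
Summed CPM of the proliferation, myelin, red blood cell and muscle lists in each of the 12 libraries of 2-month brain, by group. Proliferation sums lie between 564 and 632 CPM in sgsh Tg and between 1039 and 1355 CPM in sgsh brains, while muscle sums in sgsh Tg brains range from 192 to 3187 CPM.

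In the pineal and photoreceptor list 8 of 35 genes (22.9%, against 8.85% of all genes) rose and 0 fell, against 1 and 3 in wild type, and 5 rose in mutants without sgsh replicate 2. rpe65a, a retinoid isomerase gene, had 79.5, 53.6 and 53.03 CPM in sgsh Tg brains, against 22.7, 20.4 and 8.55 CPM in sgsh brains (log2 fold change 1.85 ± 0.25 SE, edgeR adjusted p = 2.8e-04), and saga, an arrestin gene of photoreceptors, had 19.8, 12.72 and 16.9 CPM in sgsh Tg brains, against 10.04, 6.56 and 5.19 CPM in sgsh brains (log2 fold change 1.18 ± 0.27 SE, edgeR adjusted p = 0.0080). The remaining tissue lists were read against 8.85% higher and 9.51% lower over all genes. Of 22 meningeal and fibroblast genes 2 (9.09%) rose and 2 (9.09%) fell, near those shares. Of 52 ependymal and cilia genes 3 (5.77%) rose and 2 (3.85%) fell, and of 15 skin genes 1 (6.67%) rose and 0 fell. The lens crystallin list had 7 tested members, of which 1 (14.3%) rose and 1 (14.3%) fell. Of 7 sex steroid genes tested, cyp19a1b was the one called. Of 7 pituitary genes tested, 0 were called by edgeR, 0 had an unadjusted p below 0.05 and 0 were called by DESeq2.

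Pigment genes changed in both directions. Of 19 tested, 3 (15.8%) rose and 5 (26.3%) fell, against 8.85% and 9.51% of all genes. Wild type gave 1 (5.26%) higher and 2 (10.5%) lower, near its shares of 6.79% and 8.45% over all genes. In mutants the counts were 1 and 4 without sgsh replicate 2 or without sgsh Tg replicate 2. pmela, a gene of the fibrils on which melanin is laid down, had 2.58, 3.18 and 3.15 CPM in sgsh Tg brains, against 12.8, 7.72 and 11.5 CPM in sgsh brains (log2 fold change -1.85 ± 0.26 SE, edgeR adjusted p = 4.2e-04). In wild type it had 2.58, 3.15 and 1.23 CPM in WT Tg brains, against 2.41, 2.33 and 3.49 CPM in WT brains, so the sgsh brains stood above the other 3 groups. The paralog pmelb had 12.9, 11.8 and 2.47 CPM in sgsh Tg brains, against 34.3, 29.4 and 48.5 CPM in sgsh brains (log2 fold change -2.04 ± 0.45 SE, edgeR adjusted p = 0.0064), with WT Tg and WT libraries between 3.95 and 13.5 CPM. Without the transgene pmela differed between sgsh and WT brains by 1.96 ± 0.27 (SE, edgeR adjusted p = 0.0037), and with it the difference between sgsh Tg and WT Tg brains was 0.35 ± 0.30 (SE, edgeR adjusted p = 0.92). The tests of these genes for a transgene effect that differs between genotypes did not pass (edgeR adjusted p = 0.19 and 0.31). mlpha, a melanosome transport gene, had 4.98, 3.98 and 4.32 CPM in sgsh Tg brains, against 0.361, 0.547 and 0.55 CPM in sgsh brains (log2 fold change 3.17 ± 0.34 SE, edgeR adjusted p = 5.3e-05). The part of melanophores left on the dissected brains was not tested.

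The genotype difference itself was small at this age: 166 genes (0.841%) were called between sgsh and WT brains and 6 (0.0304%) between sgsh Tg and WT Tg brains, with 2231 and 1253 at an unadjusted p below 0.05. The 6 genes, all higher in sgsh Tg than in WT Tg brains, were per1b, cry2, per3, bhlhe40, si:dkey-286j15.1 and si:ch211-132b12.7. None of them is among the 166. These comparisons share libraries with the transgene comparison, so their values are only set side by side.

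The transgene effect differed between the genotypes for 25 genes, of which 13 fall under the rule for named genes. With 1 library left out, only 3 to 19 of the 25 were still called. glb1l, a beta-galactosidase-like gene, had 8.97, 9.60 and 8.46 CPM in sgsh Tg brains, against 19.8, 18.5 and 20.8 CPM in sgsh brains (log2 fold change -1.13 ± 0.12 SE, edgeR adjusted p = 6.2e-05). In wild type it had 8.68, 7.47 and 9.01 CPM in WT Tg brains, against 7.54, 4.96 and 6.62 CPM in WT brains (log2 fold change 0.40 ± 0.14 SE, edgeR adjusted p = 0.067). The sgsh brains were thus the only group above 10 CPM, and the 2 effects differed by -1.52 ± 0.18 on the log2 scale (SE, edgeR adjusted p = 0.013). irs2a, an insulin receptor substrate gene, had 18.6, 28.8 and 14.5 CPM in sgsh Tg brains, against 1.02, 1.22 and 0.733 CPM in sgsh brains (log2 fold change 4.37 ± 0.60 SE, edgeR adjusted p = 3.1e-04), and 6.89, 26.3 and 21.7 CPM in WT Tg brains, against 9.23, 20.4 and 24.2 CPM in WT brains (log2 fold change 0.03 ± 0.40 SE, edgeR adjusted p = 0.97). The sgsh brains were far below the other 3 groups, whose libraries ranged from 6.89 to 28.8 CPM. si:ch211-214b16.2 averaged 12.4 ± 1.08 CPM in sgsh Tg and 4.43 ± 0.668 CPM in sgsh brains, a log2 fold change of 1.48 ± 0.15 SE, with -0.11 ± 0.13 SE in wild type. The monocarboxylate transporter gene slc16a6b fell in both, by 1.16 ± 0.07 in mutants and by 1.81 ± 0.07 in wild type (SE). The prostaglandin D synthase gene ptgdsb.2 rose in both, by 0.69 ± 0.07 in mutants and by 1.47 ± 0.07 in wild type (SE).

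**Figure D5:**
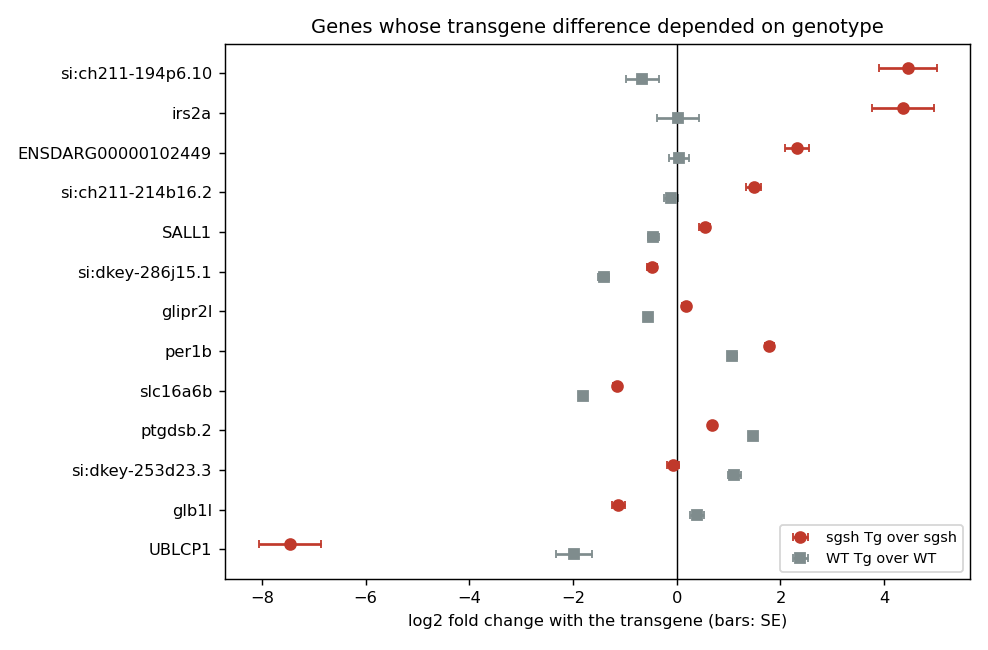
Transgene effect (log2 fold change ± SE) in sgsh mutants and in wild type for the 13 named genes whose effects differed between the genotypes. glb1l falls in mutants (-1.13) and not in wild type (0.40), irs2a rises in mutants (4.37) and is near 0 in wild type (0.03), and per1b rises in both (1.79 and 1.07).

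A further set of genes was all but absent from 1 of the mutant groups. For 41 called genes, sgsh Tg or sgsh brains together held at most 3 counts: 18 were higher and 23 lower with the transgene. In wild type 13 and 19 of these were called the same way, where 6.79% and 8.45% of all genes were called higher and lower. These genes were picked for low counts in 1 mutant group and passed the filter through the groups where they are high. Large ratios were thus fixed by the choice, and the ratios below only describe the counts. The share of all tested genes near 0 in 1 group was not counted. By position, 9 lay on chromosome 4, which holds 935 of the 19749 genes tested, 4 lay on chromosome 19, and the rest were spread over other chromosomes and unplaced scaffolds. The class I antigen-presentation gene mhc1uba on chromosome 19 had 2 counts in the 3 sgsh Tg libraries, against 2113 in the 3 sgsh libraries, a ratio of 1051 (95% exact counting interval 290.5 to 8681, lower in sgsh Tg). In the other direction mhc1zka had 224 counts in sgsh Tg brains, against 0 in sgsh brains, at least 75.1-fold higher with a floor of 3 counts over the group. apip, a methionine salvage gene whose entry here is annotated as a polymorphic pseudogene, had 210 counts in sgsh Tg brains, against 2 in sgsh brains. The ratio was 106 (interval 28.9 to 878). These intervals cover counting error only.

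The neuroendocrine chaperone gene scg5 on chromosome 19 had 2 counts in sgsh Tg brains, against 2108 in sgsh brains, and rrm2, a ribonucleotide reductase gene close to it, had 3 counts in sgsh Tg brains, against 1491 in sgsh brains. In WT brains both genes also measured 0 in replicate 2, a pool without the transgene. Both symbols occur again on chromosome 20, in a pair of genes looked up after these values were seen. There SCG5 had 119.7, 121 and 120.4 CPM in sgsh Tg brains, against 57.7, 42.8 and 43.2 CPM in sgsh brains (log2 fold change 1.33 ± 0.15 SE, edgeR adjusted p = 6.1e-05), and the second rrm2 (ENSDARG00000020711) had 20.9, 17.1 and 16.8 CPM in sgsh Tg brains, against 10.2, 14.2 and 20.7 CPM in sgsh brains (log2 fold change 0.28, edgeR adjusted p = 0.60). Reads could be split between such copies, so the counts of each are uncertain. taco1, a mitochondrial translation gene on chromosome 12, had 1 count in sgsh Tg brains, against 378 in sgsh brains (ratio 376, interval 67.1 to 14886). CCDC134, on an unplaced scaffold, had 14.2, 15.96 and 8.09 CPM in sgsh Tg brains, against 0.12, 0.0608 and 0.0611 CPM in sgsh brains (log2 fold change 7.17 ± 0.62 SE, edgeR adjusted p = 1.3e-05). Whether these genes differ by inherited haplotype was not tested.

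Calls were spread over the numbered chromosomes, from 13.3% of tested genes on chromosome 24 to 23.1% on chromosome 21, with 26.9% of the 26 mitochondrial genes and 15.4% on chromosome 22, where sgsh lies. Within 10 Mb of sgsh 58 of 449 genes (12.9%) were called, and within 1 Mb 10 of 44 (22.7%), against 18.4% of all genes. The steps within 1 Mb were small, for example rassf1, a tumour suppressor gene, with 11.12, 10.6 and 11.4 CPM in sgsh Tg brains, against 16.6, 16.1 and 21.8 CPM in sgsh brains (log2 fold change -0.72 ± 0.11 SE, edgeR adjusted p = 5.5e-04).

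The genes that separate mutant from wild-type brain 1 month later, in libraries not used above, were traced in the mutant transgene comparison. At 3 months 576 of 19922 genes (2.89%) were called between sgsh and WT brains. Of the 396 genes higher in sgsh at that age and tested at 2 months, 31 (7.83%) rose and 106 (26.8%) fell with the transgene (median -0.14), and in wild type 28 (7.07%) and 47 (11.9%). Of the 174 genes lower in sgsh at 3 months, sgsh among them, 36 (20.7%) rose and 24 (13.8%) fell (median 0.06), and in wild type 23 (13.2%) and 15 (8.62%). The background was 8.85% higher and 9.51% lower over all genes in mutants, 6.79% and 8.45% in wild type. At 2 months, without the transgene, these lists hardly separated sgsh from WT brains. Of the 396 genes, 4 (1.01%, against 0.354% of all genes) were called higher in sgsh than in WT brains and 0 lower (median 0.06). Of the 174 genes, 0 were called in either direction (median -0.0024). The test of a difference between genotypes called 0 genes of either list. Among genes higher at 3 months that fell with the transgene were arntl2, a Bmal paralog (15.7 ± 0.646 CPM in sgsh Tg and 29.2 ± 4.02 CPM in sgsh brains, log2 fold change -0.89, edgeR adjusted p = 4.0e-05), and plekhm1, given above. Lower at 3 months and higher with the transgene were mpz and sox10, given above. These examples moved opposite to the 3-month difference, whereas 31 of the 396 and 24 of the 174 genes moved with it. Of the 396, the largest rise with the transgene was that of per1a (log2 fold change 2.33, given below). The lists hold clock and glial genes, so they are not separate from the groups already described.

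The study's own driver and biomarker genes, chosen on libraries of this series, are not independent evidence of a direction. Of 67 tested, 8 (11.9%) rose and 19 (28.4%) fell in sgsh Tg brains (median -0.12), against 7 and 7 in wild type. Between sgsh and WT brains of 2 months 0 of the 67 were called. The test of a difference between genotypes also called 0. The gene si:ch211-132b12.7 had 39.3, 45.3 and 57.5 CPM in sgsh Tg brains, against 13.0, 11.8 and 10.39 CPM in sgsh brains (log2 fold change 2.01 ± 0.17 SE, edgeR adjusted p = 1.0e-05). In wild type it had 13.0, 20.6 and 19.9 CPM in WT Tg brains, against 9.35, 10.04 and 10.7 CPM in WT brains (log2 fold change 0.83 ± 0.18 SE, edgeR adjusted p = 0.0067). per1a had 58.8, 73.9 and 74.4 CPM in sgsh Tg brains, against 19.2, 17.3 and 4.64 CPM in sgsh brains (log2 fold change 2.33 ± 0.32 SE, edgeR adjusted p = 2.9e-04). cd99, a cell adhesion gene, had 20.6, 16.6 and 18.1 CPM in sgsh Tg brains, against 11.96, 11.5 and 14.1 CPM in sgsh brains (log2 fold change 0.56 ± 0.10 SE, edgeR adjusted p = 0.0013). In both genes all sgsh Tg libraries lay above all sgsh libraries. Among the 19 that fell, rorcb had 6.08, 6.42 and 5.25 CPM in sgsh Tg brains, against 14.3, 15.9 and 89.2 CPM in sgsh brains (log2 fold change -2.75 ± 0.58 SE, edgeR adjusted p = 0.0052). Its log2 fold change was -1.35 without sgsh replicate 3, still past the threshold. Of the same 19, plekhm1, given above, fell by 0.75 on the log2 scale. Of the other genes for which the study designed probes or primers, ppargc1b, baiap2b (listed as BAIAP2), btg2, npas4a, egr1 and egr4 were not called, with log2 fold changes between -0.48 and 0.69.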

How the data were processed

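Whole-brain RNA of 2-month zebrafish (3 brains per library, 3 libraries per group) was sequenced as reverse-stranded paired-end reads. The authors deposited raw counts per gene, made with featureCounts 2.0.1 (mapping quality of at least 10) on GRCz11; the count files are labelled as made from STAR alignments, whereas the processing notes name HISAT2, Bowtie2 and RSEM, so the aligner is uncertain. No value was normalized before deposit. Gene names came from the series' own table (20859 genes) or a gene name table (8382), and 3279 genes kept their identifier.

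Counts were fitted with edgeR 4.0.16 (R 4.3.3, limma 3.58.1): filterByExpr (minimum count 10, total 15), TMM scaling, and the quasi-likelihood test with Benjamini-Hochberg adjustment at 0.05. All 12 libraries of 2-month brain entered 1 fit, and CPM used the TMM-scaled library sizes. The 3-month sgsh and WT libraries were fitted separately. Alternatives were DESeq2 1.42.0, RLE and upper-quartile scaling, no filter, at least 10 counts in every library, the 6 libraries alone, a replicate block, and each library left out. The fit was tested on simulated counts with 200 changed genes.

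Members and gene lists were chosen with earlier results of these data known, and the readings of each list under the alternatives were added after seeing the data. Named genes were sgsh; the 15 called genes with the largest rise and the 15 with the largest fall whose groups did not overlap; the 10 most abundant called genes; up to 6 called genes per list by adjusted p, or up to 3 of a list with none; the 10 smallest adjusted p in the test between genotypes; genes with probes or primers in the study; and up to 10 called genes within 10 Mb of sgsh. Only these were described, with exceptions stated. Series tables of the authors' own comparisons were not used. The sequences of the genes and of the transgene were not analysed here.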

Additional observations from a re-analysis of the deposited data

Results flagged for a closer look

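The effect of the transgene differed between sgsh mutants and wild-type fish, by the interaction test of edgeR, for 25 genes, and 13 of them fall under the rule for named genes. The set was unstable: 3 to 19 of the 25 were still called with 1 library left out. The difference, the log2 effect in mutants minus that in wild type, was positive for irs2a (4.34), si:ch211-194p6.10 (5.12), ENSDARG00000102449 (2.28), si:ch211-214b16.2 (1.59), SALL1 (0.99), si:dkey-286j15.1 (0.93), glipr2l (0.73), per1b (0.71) and slc16a6b (0.65). It was negative for UBLCP1 (-5.49), glb1l (-1.52), si:dkey-253d23.3 (-1.19) and ptgdsb.2 (-0.78). The adjusted p of these 13 lay between 0.013 and 0.043 (edgeR). The sgsh brains held few counts of si:ch211-194p6.10: 51 in sgsh Tg and 2 in sgsh brains over 3 libraries each, against 39 in WT Tg and 63 in WT brains. UBLCP1, on an unplaced scaffold, had 3, 0 and 1 counts in the sgsh Tg libraries, against 312, 159 and 312 in the sgsh libraries. The sizes of both differences thus rest on values near 0.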

How the results depend on the processing

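The transgene comparison in mutants gave between 2442 calls (the 6 libraries alone) and 3637 (upper-quartile scaling), and between 2548 and 3619 with 1 library left out, against 3627. In wild type it gave 1795 to 2334 with 1 library left out, against 3009. The genotype tests moved more: the difference of effects gave 25 genes, 109 with DESeq2, 51 with no filter and 3 to 31 with 1 library left out. All of the 25 were still called with DESeq2 and with no filter, and 13 with the replicate block. With 1 library left out, between 3 (without WT Tg replicate 2) and 19 (without sgsh replicate 3) of the 25 were still called. The sgsh over WT comparison gave 166, 274 with DESeq2, 94 with the 6 libraries alone and 77 to 164 with 1 left out, and sgsh Tg over WT Tg gave 6, 24 with DESeq2, 12 with the 6 libraries alone and 2 to 6 with 1 left out. At 3 months 576 became 724 with DESeq2, 809 with the replicate block and 172 to 469 with 1 library left out. Of 255 named genes called in the mutant comparison, 218 had a value under all 13 alternatives run, and 176 of them passed the threshold in each while 42 missed it under at least 1. The other 37 were not tested under every alternative and 32 of them passed wherever they were tested. A change of sign occurred in 0. The causes were not tested. Replicate numbers did not pair the samples: deviations of same-numbered sgsh Tg and sgsh libraries correlated at -0.015, 0.111 and 0.034 across genes, and the replicate block gave 3513 calls, 3315 of them among the 3627. Deviations of transgenic libraries were shared across genotypes. They correlated at 0.566 for sgsh Tg replicate 2 with WT Tg replicate 3, and at 0.479 for sgsh Tg replicate 3 with WT Tg replicate 2. Same-numbered sgsh Tg and WT Tg libraries correlated at 0.193, -0.466 and -0.465. The tests treat all libraries as independent, and the source of this shared spread was not tested. With 3 pools per group and no founder or clutch in the labels, family, clutch and collection hour cannot be told apart from the transgene, and genes with few counts carry wide errors.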
